A study of Mus musculus with 6 samples.

Results

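Receptor subunits for glutamate and for GABA, the main excitatory and inhibitory transmitters of the brain, were followed through 6 libraries of 3′ tag counts. Members were chosen by a rule on their names, with earlier results of these data known. The rule took every single-gene symbol made of Gria, Grik, Grin, Grid or Grm and a digit, or of Gabr and a letter, together with the GABA-B genes Gabbr1 and Gabbr2. The count table listed 41 such genes, 24 for glutamate and 17 for GABA. Of these, 39 had a sense tag in at least 1 library, out of 22926 features with a sense tag in the whole table, and Gabrq and Grin3a had none. Genes of these families outside the 41 are not analysed here.

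The libraries were made from Atxn2-KO mice (Atxn2-/-) and from wild-type mice (WT, Atxn2+/+), all of strain C57BL/6 and 6 months old. Cerebellum, hippocampus and liver gave 1 library for each genotype, and each library was a pool of 3 animals, so that no genotype difference within a tissue has a replicate. Atxn2 encodes ataxin-2, an RNA-binding protein that binds poly(A)-binding protein, and the study looked for changes shared by the tissues. The libraries were prepared by MACE (massive analysis of cDNA ends), in which only a fragment from the 3′ end of a polyadenylated RNA is captured and sequenced, so tags were not divided by transcript length. How fully the RefSeq records hold the 3′ ends of each gene was not tested. Levels and shares of different genes below therefore compare assigned tags, and not amounts of subunits. The extraction protocol speaks of midbrain where the sample labels say hippocampus and gives ages in weeks; the sample labels were used.

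Fast excitation runs through ionotropic glutamate receptors, which assemble from AMPA, kainate or NMDA subunits, while delta subunits are relatives that organise synapses and metabotropic (mGlu) receptors signal through G proteins. GABA-A receptors are chloride channels of alpha, beta and gamma or delta subunits, and the alpha subunit sets where a receptor sits and how it responds to benzodiazepines. In the cerebellum, granule cells are known for alpha6 and delta subunits, whereas hippocampal pyramidal cells are known for alpha5, GluN2B and mGlu5.

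Tags assigned to genes numbered 1774523 to 2727523 per library, and the members held 9698 to 10611 of them in each brain library, against 114 and 237 in KO and WT liver. Atxn2 had 0, 1 and 2 tags in KO cerebellum, hippocampus and liver, against 167, 194 and 115 in WT. Xist, the RNA of the inactive X chromosome of females, had 0 tags in every KO library, against 34, 49 and 87 in WT cerebellum, hippocampus and liver, while the Y-linked Ddx3y had 81 to 176 tags in KO and 101 to 176 in WT, so the sex makeup of the pools and the genotype cannot be told apart. Levels are given as CPM, tags per 1e6 of library size after TMM scaling. All 8 granule neuron markers and all 8 Purkinje markers were called higher in cerebellum, and the 9 tested of 10 hippocampal neuron markers were called lower there, while Ocm, a member of the last list, had 3 tags in all brain libraries. The list of 8 midbrain dopamine neuron markers summed to 15.4 CPM in KO and 17.7 in WT hippocampus, against 19.4 and 27.9 in cerebellum. Of its 5 tested genes, 2 were called higher in cerebellum and 1, Nr4a2, lower. Nr4a2 had 32 tags in KO and 32 in WT hippocampus, and Ddc had 11 and 10. Slc6a3, the dopamine transporter gene of this list, had 1 tag in all 6 libraries. Whether the tissue was hippocampus or midbrain was not tested with these markers. The hepatocyte marker list summed to 364 CPM in KO and 1578 in WT hippocampus and to 2731 in KO and 4049 in WT cerebellum, against 178827 in KO and 158063 in WT liver. Most of the cerebellum sum was Ttr, with 2482 CPM in KO and 3584 in WT, the 1 gene of the list called higher in cerebellum. In hippocampus Ttr had 142 CPM in KO and 389 in WT. Alb had 181 CPM in KO and 306 in WT cerebellum, against 154 in KO and 892 in WT hippocampus.

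Cerebellum and hippocampus differed in many of their receptor subunit transcripts. Gabra6, Gria4, Gabrd and Grin2c were higher in cerebellum, the first of them 101-fold, and Gabra5, Grm5 and Grin2b led the genes that were lower there, by 80.7-fold, 35.9-fold and 31.8-fold. Subunits of GABA-B receptors and 3 of the 5 kainate subunits did not pass the test. Of the 33 members tested, 6 were called higher in cerebellum, 18 were called lower and 9 did not pass; over all 12906 genes tested, 13.5% were called higher and 15.8% lower, 29.3% in all. The median log2 ratio was -1.19 over the 33 members and -0.00 over all genes. Without the WT cerebellum library it was -0.84 over the members and -0.00 over all genes. The test was edgeR's quasi-likelihood test over the 6 libraries with tissue and genotype as terms, called at a Benjamini-Hochberg adjusted p under 0.05, and it took the KO and WT pools as the replicates of a tissue, so its p-values do not measure spread between animals. Ratios between single pools are given with exact 95% Clopper-Pearson intervals (counting intervals), which cover counting error only. In whole tissue, fewer cells of a type and less RNA per cell cannot be told apart.

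**Figure D1:**
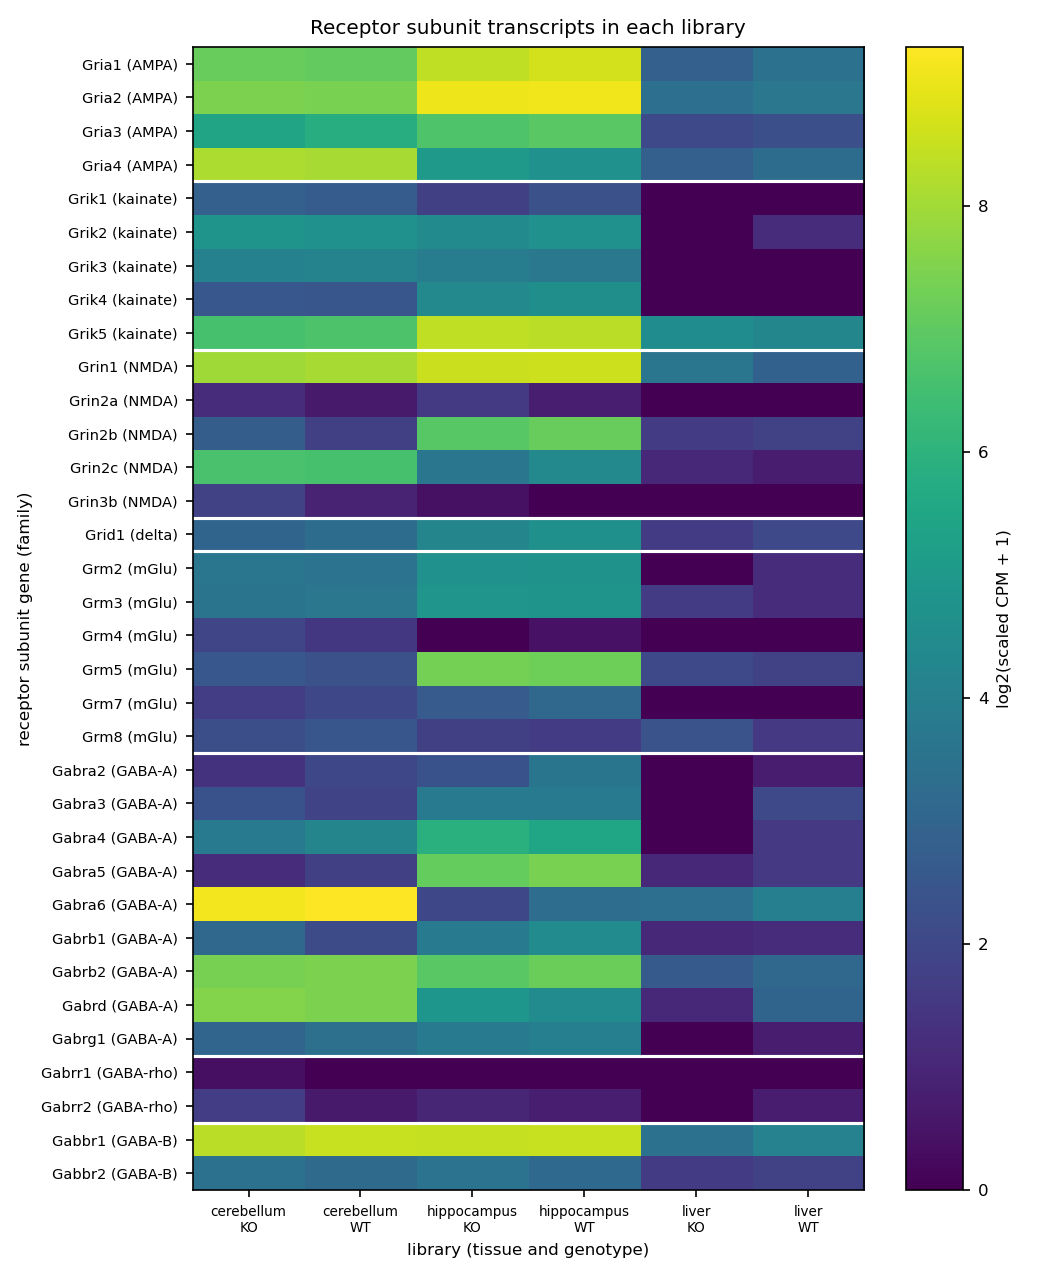
Levels of 34 receptor subunit genes with a tag, 1 row per gene ordered by family, in the 6 libraries (columns, 1 pool each). Colour gives log2(scaled CPM + 1). Gabra6 reaches 566 CPM in KO and 628 in WT cerebellum against 3.02 and 9.05 in hippocampus, and the liver columns are the darkest for most genes.

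**Figure D2:**
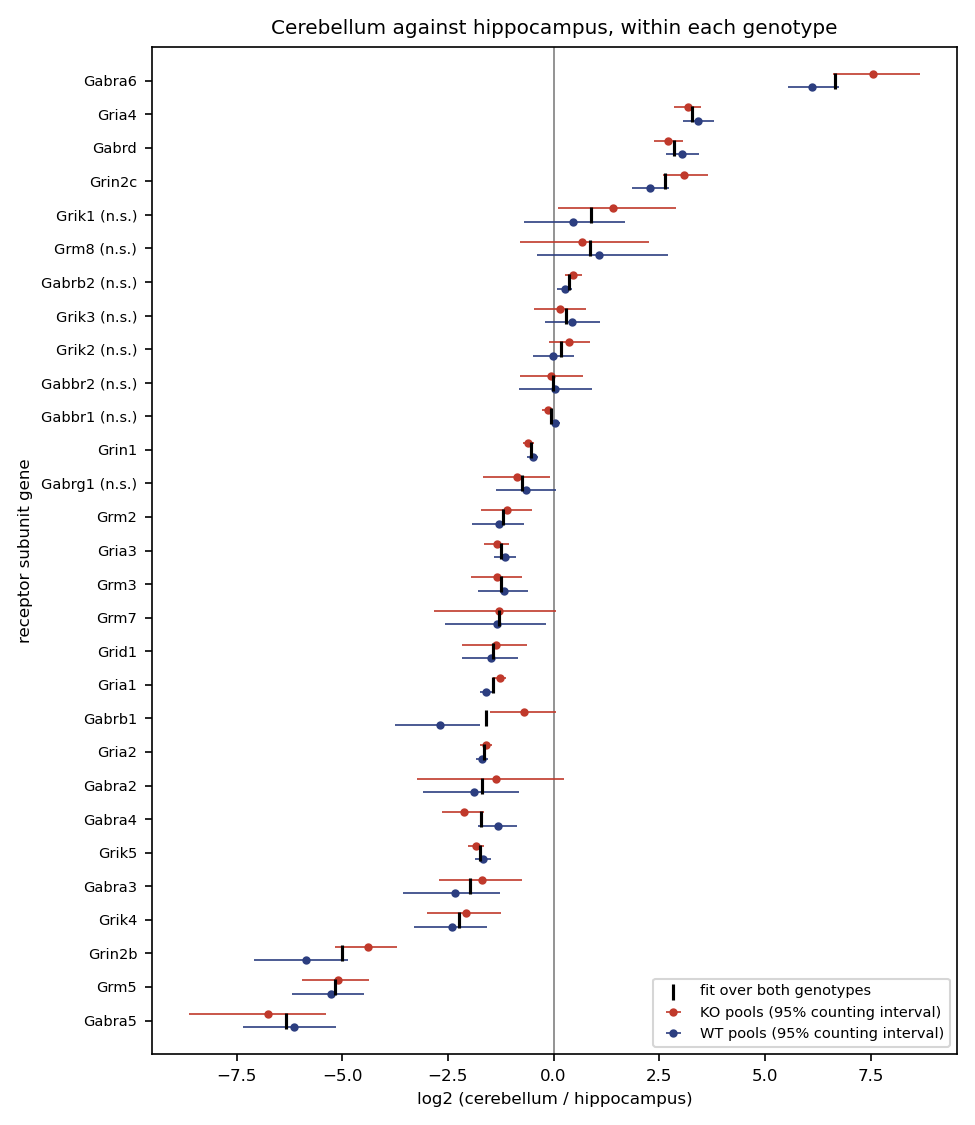
Cerebellum over hippocampus for 29 of the 33 tested genes, as log2 ratios of CPM between the KO pools (red) and between the WT pools (blue) with exact 95% counting intervals, and the edgeR estimate over both genotypes (black tick); n.s. marks the 8 genes among them that did not pass. Gabra6, Gria4, Gabrd and Grin2c lie far to the right and Grin2b, Grm5 and Gabra5 far to the left in both genotypes.

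Sequence before the start site is shown for 3 genes that were high in cerebellum (Gabra6, Grin2c, Gria4) and 2 that were high in hippocampus (Gabra5, Gria2), so that genes with opposite tissue ratios can be read beside their promoters; Grm5, Grin2b and Gabrd have no entry in the table used. Each run is the 250 bases before a start in the RefSeq promoter table (GRCm38.p6), 5′ to 3′ on the gene's strand; for Gabra5, Gria2 and Grin2c the RefSeq gene span reaches beyond this start. Capitals mark 2 motifs searched on both strands that do not overlap here, TTGGC or its reverse complement GCCAA (the half-site bound by NFI factors) and CANNTG (the E-box bound by basic helix-loop-helix factors).
Gabra6, chr11:42321073-42321322, minus strand: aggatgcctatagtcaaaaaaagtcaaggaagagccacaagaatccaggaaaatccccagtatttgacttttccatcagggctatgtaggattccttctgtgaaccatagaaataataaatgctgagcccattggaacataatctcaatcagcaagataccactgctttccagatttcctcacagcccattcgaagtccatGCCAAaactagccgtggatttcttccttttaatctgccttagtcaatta
Grin2c, chr11:115267244-115267493, minus strand: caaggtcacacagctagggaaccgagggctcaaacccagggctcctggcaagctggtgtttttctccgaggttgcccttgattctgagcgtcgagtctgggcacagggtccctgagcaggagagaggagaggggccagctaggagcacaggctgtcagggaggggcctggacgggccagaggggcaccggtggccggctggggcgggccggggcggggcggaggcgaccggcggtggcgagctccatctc
Gria4, chr9:4796235-4796484, minus strand: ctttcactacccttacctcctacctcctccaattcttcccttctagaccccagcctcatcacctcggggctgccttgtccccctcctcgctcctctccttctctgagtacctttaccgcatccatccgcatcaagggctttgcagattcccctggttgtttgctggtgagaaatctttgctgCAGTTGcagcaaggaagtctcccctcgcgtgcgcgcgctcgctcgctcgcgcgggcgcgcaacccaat
Gabra5, chr7:57510060-57510309, minus strand: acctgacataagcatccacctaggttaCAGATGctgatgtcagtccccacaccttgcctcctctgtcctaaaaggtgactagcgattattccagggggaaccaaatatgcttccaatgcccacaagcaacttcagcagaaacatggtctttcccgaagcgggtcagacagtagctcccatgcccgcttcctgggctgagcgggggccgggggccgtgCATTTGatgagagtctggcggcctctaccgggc
Gria2, chr3:80802836-80803085, minus strand: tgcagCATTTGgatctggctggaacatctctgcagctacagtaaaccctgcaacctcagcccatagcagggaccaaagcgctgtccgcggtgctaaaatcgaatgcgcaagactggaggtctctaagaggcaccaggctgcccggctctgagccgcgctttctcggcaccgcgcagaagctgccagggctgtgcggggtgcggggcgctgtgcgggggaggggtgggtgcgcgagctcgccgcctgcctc
The Gabra6 window held 1 NFI half-site and no E-box, Gria4 and Gria2 held 1 E-box each, Gabra5 held 2 E-boxes, and Grin2c held neither motif. The table had a promoter for 26 of the 41 members, 33 promoters in all. An NFI half-site stood in 13 of these 33 windows (39.4%), against 41.5% of all 32851 windows of that length, and an E-box stood in 13 (39.4%), against 66.2%. TATAAA stood in 4 of the 33 (12.1%), against 12.4%, and the cyclic AMP response element TGACGTCA in none, against 1.55%. G and C made up 40.8% of the Gabra6 window and 56.4% to 68.8% of the other 4.

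The alpha subunits of GABA-A receptors held both the highest and the lowest ratio of the 33 tested members. Gabra6 (alpha6, the subunit of cerebellar granule cells) had 566 CPM in KO and 628 in WT cerebellum, 3.02 in KO and 9.05 in WT hippocampus, and 9.44 in KO and 15.2 in WT liver. Both cerebellum pools stood far above the other 4 libraries (edgeR log2 ratio 6.66, SE 0.27, adjusted p = 1.3e-13), and the log2 ratio was 7.55 between the KO pools (counting interval 6.62 to 8.68) and 6.12 between the WT pools (5.55 to 6.75). Without WT hippocampus the fitted ratio was 7.48. Gabra5 (alpha5, an extrasynaptic subunit of hippocampal pyramidal cells) had 1.252 CPM in KO and 2.43 in WT cerebellum, 135 in KO and 169.8 in WT hippocampus, and 1.05 in KO and 1.90 in WT liver. The order was the reverse of Gabra6, with both hippocampus pools above all others (edgeR log2 ratio -6.34, SE 0.27, adjusted p = 1.97e-13). Gabra4 (alpha4, found with delta outside synapses in dentate granule cells) had 13.5 CPM in KO and 17.9 in WT cerebellum, 58.8 in KO and 44.5 in WT hippocampus, and 0 in KO and 1.90 in WT liver, lower in cerebellum (edgeR log2 ratio -1.71, SE 0.24, adjusted p = 9.12e-06). Gabra3 had 4.07 CPM in KO and 2.73 in WT cerebellum, 13.1 in KO and 13.8 in WT hippocampus, and 0 in KO and 3.17 in WT liver, and it too was lower in cerebellum (edgeR log2 ratio -1.97, SE 0.41, adjusted p = 7.16e-04). Gabra2, a scarce transcript, had 5 tags in KO and 10 in WT cerebellum and 12 tags in KO and 31 in WT hippocampus, and was called lower (edgeR log2 ratio -1.70, SE 0.46, adjusted p = 0.00732). Without the WT cerebellum library the calls of Gabra2 (-1.31) and Gabra3 (-1.57) were lost at these log2 ratios, and Gabra2 also lost its call with DESeq2 (-1.70), without KO cerebellum (-1.88) and without WT hippocampus (-1.41).

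As a share of all alpha tags, Gabra6 made up 65.4% in KO and 64.0% in WT cerebellum, against 0.794% in KO and 2.36% in WT hippocampus. Gabra5 made up 0.145% in KO and 0.247% in WT cerebellum, against 35.4% in KO and 44.3% in WT hippocampus. Gabra4 made up 1.56% in KO and 1.82% in WT cerebellum, against 15.4% in KO and 11.6% in WT hippocampus. The granule neuron marker list, whose cells carry alpha6, summed to 2077 CPM in KO and 1962 in WT cerebellum, against 164 in KO and 154 in WT hippocampus; the part of cell composition in these ratios was not tested.

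Among the other GABA-A subunits, Gabrd (delta, which forms extrasynaptic receptors with alpha6 or alpha4) was the clearest cerebellar gene. It had 189 CPM in KO and 176 in WT cerebellum, 28.9 in KO and 21.4 in WT hippocampus, and 1.05 in KO and 6.97 in WT liver, a 7.25-fold difference between the brain regions (edgeR log2 ratio 2.86, SE 0.21, adjusted p = 8.13e-10). Gabrb2 (beta2) had 166 CPM in KO and 174 in WT cerebellum, 119.6 in KO and 146 in WT hippocampus, and 5.25 in KO and 7.60 in WT liver; its cerebellum pools were the higher ones, but it did not pass the test (edgeR log2 ratio 0.37, SE 0.16, adjusted p = 0.0950). Gabrb1 (beta1) had 7.83 CPM in KO and 3.33 in WT cerebellum, 12.8 in KO and 21.4 in WT hippocampus, and 1.05 in KO and 1.27 in WT liver. It was called lower in cerebellum (edgeR log2 ratio -1.60, SE 0.38, adjusted p = 0.00228), with unequal log2 ratios of -0.71 between the KO pools (counting interval -1.50 to 0.06) and -2.68 between the WT pools (-3.76 to -1.74). Gabrg1 had 7.20 CPM in KO and 9.70 in WT cerebellum, 13.1 in KO and 15.2 in WT hippocampus, and 0 in KO and 0.633 in WT liver and did not pass (edgeR log2 ratio -0.75, SE 0.31, adjusted p = 0.0746). The call of Gabrb1 was lost with DESeq2 (log2 -1.68), without WT cerebellum (-0.72) and without WT hippocampus (-0.77), and its ratio was -2.64 without KO cerebellum and -2.55 without KO hippocampus. With the brain libraries alone Gabrb2 (0.36) and Gabrg1 (-0.75) passed.

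Among gamma and delta tags, Gabrd was 65.5% in KO and 58.4% in WT cerebellum, against 16.8% in KO and 12.5% in WT hippocampus. Of beta tags, Gabrb2 made up 73.1% in KO and 77.2% in WT cerebellum, against 40.1% in KO and 45.4% in WT hippocampus.

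Many GABA-A genes lie in chromosomal clusters. On chromosome 5 (GRCm38.p6, 70751047 to 72149572), Gabra2, Gabra4 and Gabrb1 were called lower and Gabrg1 did not pass. On the X chromosome Gabra3 was called lower, and its neighbour Gabrq had no sense tag.

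All 4 AMPA subunits differed between the regions, 1 higher and 3 lower in cerebellum. Gria4 (GluA4, with fast kinetics) had 281 CPM in KO and 269 in WT cerebellum, 31.2 in KO and 25.0 in WT hippocampus, and 6.29 in KO and 8.87 in WT liver. It was 9.77-fold higher in cerebellum, in both pools (edgeR log2 ratio 3.29, SE 0.19, adjusted p = 1.18e-11). Gria2 (GluA2, whose edited form blocks calcium entry) had 175 CPM in KO and 171 in WT cerebellum, 531 in KO and 551 in WT hippocampus, and 9.44 in KO and 12.0 in WT liver. Its hippocampus pools held the highest level of any glutamate receptor gene (edgeR log2 ratio -1.65, SE 0.17, adjusted p = 1.42e-07). Gria1 (GluA1, which is delivered to synapses during potentiation) had 140.2 CPM in KO and 133 in WT cerebellum, 339 in KO and 399.7 in WT hippocampus, and 6.29 in KO and 10.1 in WT liver, with both cerebellum pools below both hippocampus pools (edgeR log2 ratio -1.43, SE 0.17, adjusted p = 8.91e-07). Gria3 had 41.6 CPM in KO and 54.3 in WT cerebellum, 105 in KO and 119.8 in WT hippocampus, and 3.15 in KO and 3.80 in WT liver and was likewise lower in cerebellum (edgeR log2 ratio -1.24, SE 0.17, adjusted p = 4.97e-06). Of AMPA tags, Gria4 made up 44.1% in KO and 42.9% in WT cerebellum, against 3.10% in KO and 2.28% in WT hippocampus. Gria2 made up 27.4% in KO and 27.2% in WT cerebellum, against 52.8% in KO and 50.3% in WT hippocampus.

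NMDA receptors pair the obligatory GluN1 subunit with GluN2 subunits, and here Grin2c and Grin2b differed between the regions in opposite directions. Grin2c (GluN2C, typical of mature cerebellar granule cells) had 97.3 CPM in KO and 94.9 in WT cerebellum, 11.4 in KO and 19.6 in WT hippocampus, and 1.05 in KO and 0.633 in WT liver. It was 6.27-fold higher in cerebellum (edgeR log2 ratio 2.65, SE 0.22, adjusted p = 2.96e-09), with log2 ratios of 3.09 between the KO pools (counting interval 2.58 to 3.65) and 2.28 between the WT pools (1.86 to 2.72). Grin2b (GluN2B, a forebrain subunit with slow currents) had 5.63 CPM in KO and 2.43 in WT cerebellum, 118 in KO and 141 in WT hippocampus, and 2.10 in KO and 2.53 in WT liver, the reverse order without overlap (edgeR log2 ratio -4.99, SE 0.27, adjusted p = 4.37e-12). Its log2 ratio was -4.39 between the KO pools (counting interval -5.16 to -3.71) and -5.86 between the WT pools (-7.08 to -4.87), and the fitted ratio was -5.82 without KO cerebellum, -4.38 without WT cerebellum and -5.62 without KO hippocampus. Grin1 (GluN1) had 250.1 CPM in KO and 273 in WT cerebellum, 377 in KO and 384 in WT hippocampus, and 11.5 in KO and 6.33 in WT liver. Its hippocampus pools were higher by 1.46-fold (edgeR log2 ratio -0.54, SE 0.17, adjusted p = 0.0207), and this call was lost with library totals as the scaling (log2 -0.42), with DESeq2 (-0.58) and without any 1 of the 4 brain libraries (-0.42 to -0.67). Of GluN2 tags, Grin2c made up 93.4% in KO and 96.9% in WT cerebellum, against 8.67% in KO and 12.1% in WT hippocampus. Grin2b made up 5.41% in KO and 2.48% in WT cerebellum, against 89.8% in KO and 87.4% in WT hippocampus. Grin2a (GluN2A), known as an abundant adult subunit, had only 4 tags in KO and 2 in WT cerebellum and 6 tags in KO and 2 in WT hippocampus and was too low to be tested, as was Grin3b with 8 tags in KO and 3 in WT cerebellum and 1 and 0 in hippocampus. The cause of these low counts was not tested.

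Of the 5 kainate receptor genes, 2 were called lower in cerebellum and 3 did not pass. Grik5 (GluK5, a high-affinity subunit that needs a partner) had 94.2 CPM in KO and 102 in WT cerebellum, 337 in KO and 325 in WT hippocampus, and 22.0 in KO and 18.4 in WT liver, 3.36-fold lower in cerebellum with no overlap of the pools (edgeR log2 ratio -1.75, SE 0.17, adjusted p = 3.32e-08). Grik4 (GluK4, its close relative, known from CA3 cells) had 4.70 CPM in KO and 4.55 in WT cerebellum, 19.8 in KO and 23.9 in WT hippocampus, and 0 in KO and 0 in WT liver, and was also lower (edgeR log2 ratio -2.23, SE 0.32, adjusted p = 1.36e-05). The other 3 kainate genes, Grik1, Grik2 and Grik3, showed no called difference. Grik2 (GluK2) had 26.9 CPM in KO and 24.9 in WT cerebellum, 20.8 in KO and 25.0 in WT hippocampus, and 0 in KO and 1.27 in WT liver (edgeR log2 ratio 0.18, SE 0.23, adjusted p = 0.617). Grik3 had 16.0 CPM in KO and 16.7 in WT cerebellum, 14.4 in KO and 12.3 in WT hippocampus, and 0 in KO and 0 in WT liver (edgeR log2 ratio 0.29, SE 0.27, adjusted p = 0.484). Grik1 had 20 tags in KO and 18 in WT cerebellum and 7 tags in KO and 11 in WT hippocampus (edgeR log2 ratio 0.89, SE 0.47, adjusted p = 0.175). Grik5 thus took 63.6% in KO and 66.5% in WT cerebellum of kainate tags, against 85.4% in KO and 83.3% in WT hippocampus. Of the delta subunits, Grid1 had 6.89 CPM in KO and 8.79 in WT cerebellum, 17.8 in KO and 24.6 in WT hippocampus, and 2.10 in KO and 3.17 in WT liver and was lower in cerebellum (edgeR log2 ratio -1.43, SE 0.28, adjusted p = 4.15e-04), a call lost without the WT cerebellum library (log2 -1.36).

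**Figure D3:**
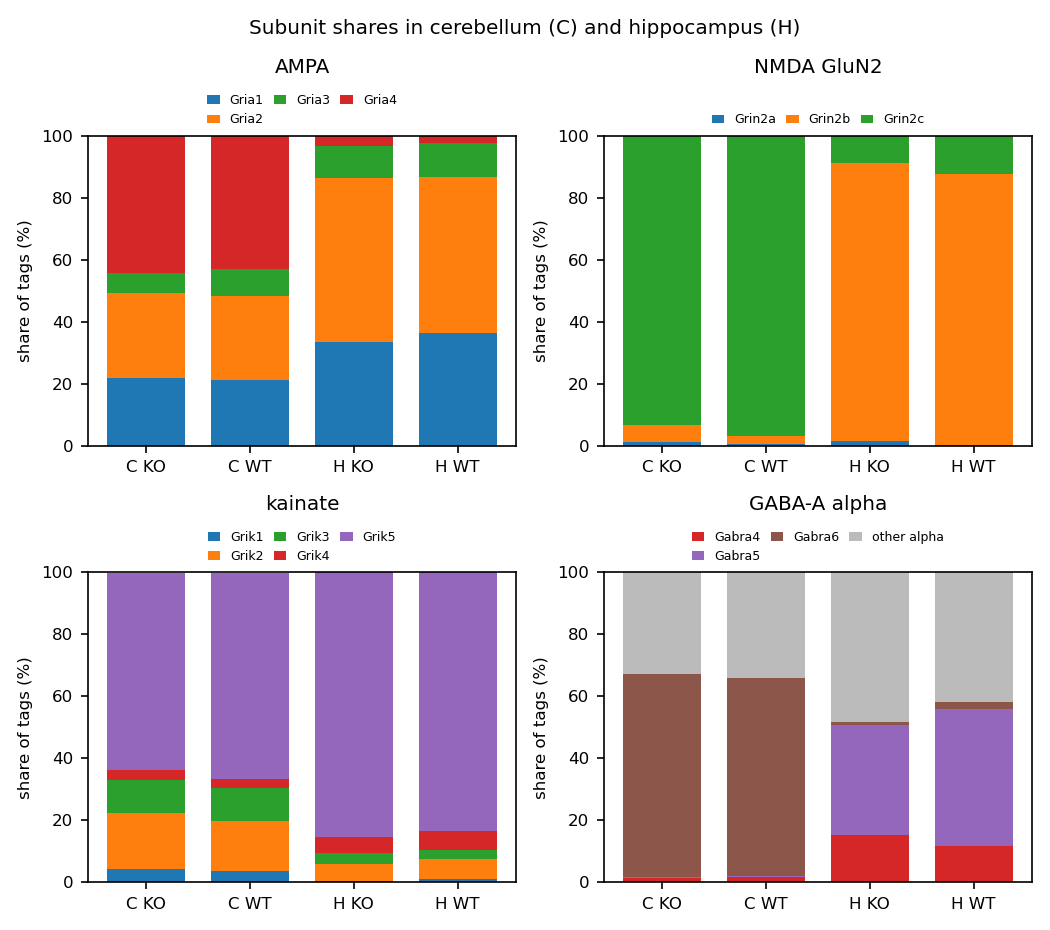
Share of tags (percent) of each subunit within AMPA, GluN2, kainate and GABA-A alpha subunits, in the KO and WT pools of cerebellum (C) and hippocampus (H); each stack sums to 100% of a set's tags in 1 library, and grey pools the alpha subunits not drawn singly. Brown Gabra6 fills 65.4% in KO and 64.0% in WT cerebellum and purple Gabra5 fills 35.4% in KO and 44.3% in WT hippocampus; green Grin2c fills most of the GluN2 stack in cerebellum and orange Grin2b in hippocampus.

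Of the group I metabotropic receptors, which couple to phospholipase C, Grm5 (mGlu5) had 4.70 CPM in KO and 3.94 in WT cerebellum, 161 in KO and 152 in WT hippocampus, and 3.15 in KO and 2.53 in WT liver. Its hippocampus pools exceeded every other library by a wide margin (edgeR log2 ratio -5.16, SE 0.23, adjusted p = 3.38e-13). The group II receptors, which inhibit adenylyl cyclase, were both lower in cerebellum. Grm2 had 11.6 CPM in KO and 10.6 in WT cerebellum, 24.9 in KO and 26.1 in WT hippocampus, and 0 in KO and 1.27 in WT liver (edgeR log2 ratio -1.19, SE 0.26, adjusted p = 0.00134). Grm3 had 10.96 CPM in KO and 11.8 in WT cerebellum, 27.5 in KO and 26.8 in WT hippocampus, and 2.10 in KO and 1.27 in WT liver (edgeR log2 ratio -1.25, SE 0.25, adjusted p = 4.88e-04). Grm2 made up 51.4% in KO and 47.3% in WT cerebellum of group II tags, against 47.4% in KO and 49.3% in WT hippocampus. The group III receptors, mostly presynaptic, were scarce. Grm7 had 7 tags in KO and 10 in WT cerebellum and 16 tags in KO and 21 in WT hippocampus and was called lower (edgeR log2 ratio -1.30, SE 0.46, adjusted p = 0.0408). Grm8 had 12 tags in KO and 15 in WT cerebellum and 7 tags in KO and 6 in WT hippocampus and did not pass (edgeR log2 ratio 0.86, SE 0.53, adjusted p = 0.251). Grm4, known as a presynaptic receptor of granule cell axons, had 9 tags in KO and 6 in WT cerebellum and 0 tags in KO and 1 in WT hippocampus, below the filter. The call of Grm7 was lost with library totals (log2 -1.18), with DESeq2 (-1.35) and without any 1 of the 4 brain libraries (-1.27 to -1.31), that of Grm2 without WT cerebellum (-1.06) and that of Grm3 without KO cerebellum (-1.15).

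GABA-B receptors are G protein-coupled dimers of the products of Gabbr1 and Gabbr2. Gabbr1 had 323 CPM in KO and 369 in WT cerebellum, 355 in KO and 362 in WT hippocampus, and 10.5 in KO and 16.5 in WT liver, with all 4 brain libraries close together (edgeR log2 ratio -0.06, SE 0.17, adjusted p = 0.845). Gabbr2 had 10.3 CPM in KO and 8.18 in WT cerebellum, 10.7 in KO and 7.97 in WT hippocampus, and 2.10 in KO and 2.53 in WT liver, again alike in the pools of both regions but far below its partner (edgeR log2 ratio -0.01, SE 0.32, adjusted p = 0.982). The standard error of Gabbr2 was the larger one, with 114 tags in the 4 brain libraries against 4307 for Gabbr1. The cause of this gap in tags was not tested. The rho subunits, known from the retina, had few tags, with 1 tag of Gabrr1 in all and 7, 2, 3 and 2 tags of Gabrr2 in KO cerebellum, WT cerebellum, KO hippocampus and WT hippocampus.

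Genes that work beside the receptors also differed between the regions. Over all 12906 genes tested, 13.5% were called higher in cerebellum and 15.8% lower. Of 39 tested auxiliary and anchoring genes for glutamate receptors, 9 were called higher in cerebellum and 22 lower (edgeR, median log2 ratio -1.08), beside the member counts of 6 and 18 of 33. C1ql2, a secreted ligand of kainate receptors at mossy fibre synapses, had 1 tag in KO and 3 in WT cerebellum and 366 in KO and 294 in WT hippocampus (edgeR log2 ratio -7.42, adjusted p = 3.55e-13). Of 22 tested GABA receptor partners, 2 were called higher and 7 lower; Kctd8, an auxiliary subunit of GABA-B receptors, had the highest ratio (2.55, adjusted p = 6.08e-06) and Shisa7, an auxiliary subunit of GABA-A receptors, the lowest (-4.08, adjusted p = 9.46e-11). Of 23 genes for transmitter synthesis and transport, 9 were called higher and 6 lower, from Slc1a6, the glutamate transporter of Purkinje cells (4.33, adjusted p = 7.02e-13), to Slc1a1, a neuronal glutamate transporter (-2.57, adjusted p = 1.14e-08).

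In liver the receptor genes had few tags. All 33 tested members had a fitted ratio of brain over liver above 0, and 32 of them passed the test, against 36.4% of all genes called higher and 70.2% called in either direction (edgeR, mean of both regions over liver). The exception was Grm8, with 4 tags in KO and 3 in WT liver (edgeR log2 ratio 0.14, SE 0.65, adjusted p = 0.862), whose ratio was -0.08 without WT cerebellum and -0.51 without WT liver. Grik5 had the most liver tags, 21 in KO and 29 in WT, a mean level 9.41% of that in brain (edgeR log2 ratio 3.18, SE 0.22, adjusted p = 1.55e-11). Gabbr1 followed with 10 tags in KO and 26 in WT liver, 3.83% of its brain level (edgeR log2 ratio 4.66, SE 0.24, adjusted p = 1.48e-13), and Gabra6 had 9 in KO and 24 in WT. Grik1, Grik3, Grik4 and Grm7 had no liver tag; against a floor of 3 tags per library, brain was at least 5.88-fold higher for Grik3, 5.25-fold for Grik4 and 1.79-fold for Grik1 and Grm7. The call of Gabra3 was lost without KO cerebellum (log2 1.60) and without KO liver (1.04), and that of Gabra2 without WT liver (5.68).

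The liver level of the 27 members with at least 10 CPM in brain was 0 to 18.1% of the brain level, with a median of 3.46%. The same median was 3.24% for 8 granule neuron markers, 3.50% for 8 Purkinje markers and 3.53% for 8 hippocampal neuron markers, and no granule neuron or Purkinje marker had 0 tags in both liver libraries. Whether the liver tags of the receptor genes came from liver cells was not tested. The median log2 ratio over all genes was 0.16 with TMM scaling and 1.41 with library totals, under which Grm8 passed as well (1.36).

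Loss of Atxn2 gave no called change in any receptor subunit across the 3 tissues. None of the 29 members tested for KO over WT passed, against 11 of 11375 genes (0.0967%, 0.00879% higher and 0.0879% lower in KO). None had an unadjusted p under 0.05 (edgeR with tissue as a term, smallest adjusted p = 0.998). DESeq2 called 0 members as well, but only 2 of all 11375 genes. Log2 ratios of KO over WT were below 0 for 18 members and above 0 for 11, from -0.43 for Grid1 (SE 0.26) to 0.34 for Gabbr2 (SE 0.30), and their standard errors were 0.15 to 0.44. The smallest unadjusted p, 0.0834 in edgeR, belonged to Gabra6, at a log2 ratio of -0.40 (SE 0.22). The tissues served as the replicates of a genotype in this fit. Since the sample titles give the same animal numbers in every tissue of a genotype, the tissues may come from the same mice and may not be independent replicates. On simulated counts the same fit recovered 30% of genes changed 1.5-fold and 66% of those changed 2-fold, with 2 unchanged genes called among 11375. There the changed genes had a minimum mean count and the same fold in all 3 tissues, and the libraries were drawn independently. These rates therefore do not cover scarce members or tissues of the same mice.

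Within cerebellum, where KO and WT are 1 pool each and only counting error can be given, 20 members had a mean of at least 10 CPM. Their median log2 ratio of KO over WT was -0.07, against -0.01 over all 8576 genes, with 12 below 0 and 8 above. None met the fold rule (at least 1.5-fold with a 95% counting interval that excludes equality), against 3.38% of all genes (1.33% higher and 2.05% lower in KO). The interval lay below 0 for 5 members and above 0 for none. Among all 8576 genes it lay below 0 for 694 and above 0 for 601, 15.1% in all. All 5 differences were under 1.5-fold, and 4 of them were in GABA receptor genes, Gabra6 and Gabbr1 among them. Gabra6 had 1808 tags in KO and 2071 in WT cerebellum (log2 ratio -0.15, counting interval -0.24 to -0.06). Gabbr1 had 1032 tags in KO and 1218 in WT cerebellum (-0.19, counting interval -0.31 to -0.07). The glutamate receptor gene was Gria3, with 133 tags in KO and 179 in WT cerebellum (-0.38, counting interval -0.72 to -0.05). Below 10 CPM, Gabrb1 had 25 tags in KO and 11 in WT cerebellum (1.23, counting interval 0.16 to 2.40).

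Summed over the family, GABA receptor subunits had 5487 tags in KO and 6220 in WT cerebellum, a log2 ratio of -0.13 after scaling (counting interval -0.19 to -0.08), and glutamate receptor subunits had 4211 in KO and 4391 in WT (-0.01, -0.08 to 0.05). Gabra6 and Gabbr1 gave the largest parts of the GABA sum. Of 8 Purkinje markers, 6 had an interval below 0 in the same pair of libraries (median log2 ratio -0.15, summed CPM 8484 in KO and 9314 in WT), and of 8 granule neuron markers 4 had an interval above 0 and 1 below (median 0.08, summed CPM 2077 in KO and 1962 in WT); their part in the receptor ratios was not tested.

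Within hippocampus, 27 members had at least 10 CPM and 2 of them met the fold rule, both lower in KO, against 7.77% of all 8606 genes (4.15% higher and 3.63% lower in KO). Grin2c had 34 tags in KO and 54 in WT hippocampus (log2 ratio -0.78, counting interval -1.44 to -0.13), and Gabrb1 had 38 tags in KO and 59 in WT hippocampus (-0.74, counting interval -1.37 to -0.13). The median over the 27 was -0.05, against 0.01 over all genes, with 17 below 0 and 10 above. Intervals lay above 0 for 2 members and below 0 for 6. Among all 8606 genes they lay above 0 for 1076 and below 0 for 905, 23% in all. Among those above 0, Gabra4 had 175 tags in KO and 123 in WT hippocampus (0.40, counting interval 0.06 to 0.75). Gabra5, the abundant alpha subunit of this tissue, had 402 tags in KO and 469 in WT hippocampus (-0.33, counting interval -0.53 to -0.14). The other 3 below 0 were Gabrb2 (-0.28, counting interval -0.49 to -0.07), Gria1 (-0.24, counting interval -0.36 to -0.11) and Grin2b (-0.25, counting interval -0.46 to -0.04). Summed glutamate receptor subunits had 6559 tags in KO and 6413 in WT (-0.08 after scaling, -0.13 to -0.03), and summed GABA receptor subunits 3627 in KO and 3438 in WT (-0.03, -0.10 to 0.04).

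**Figure D4:**
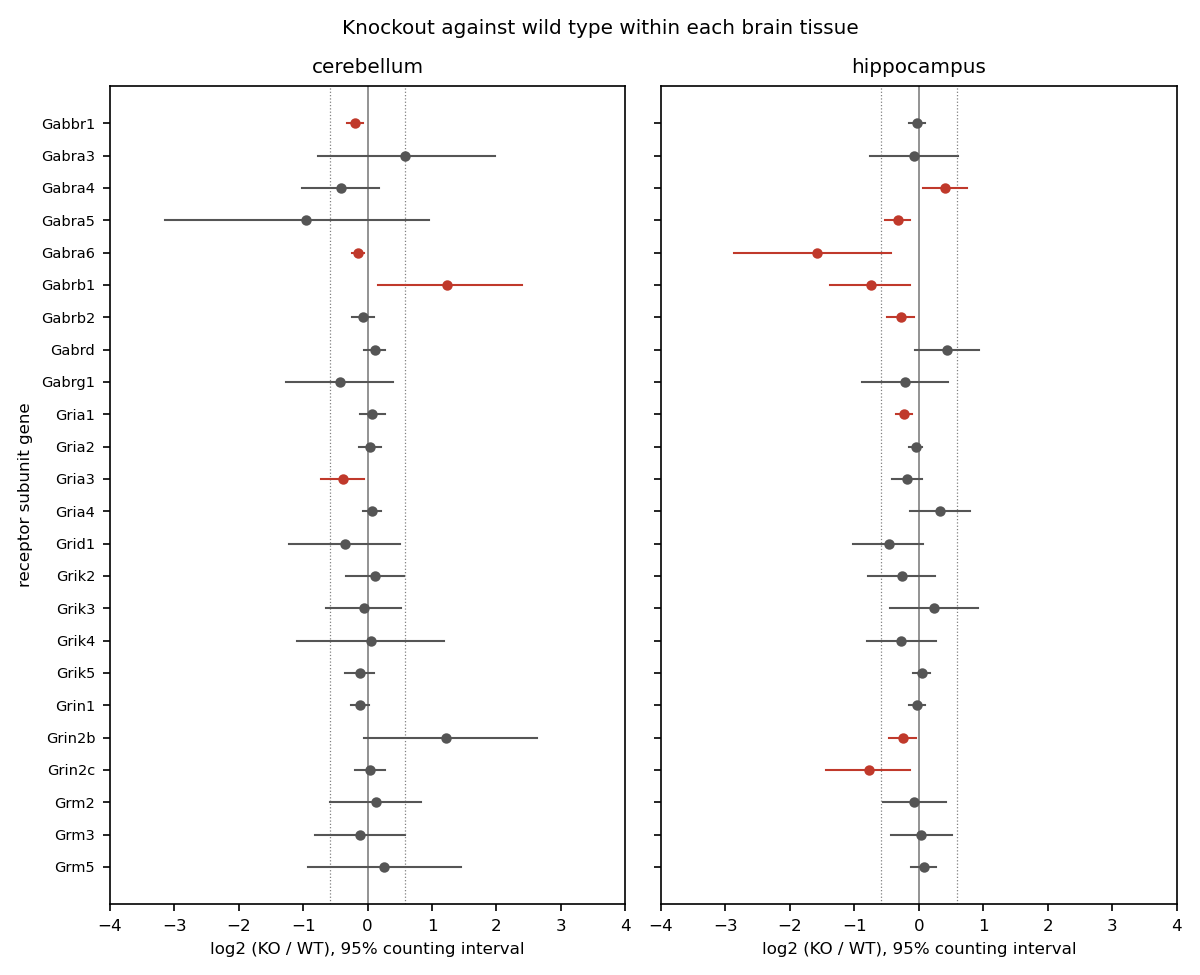
Log2 ratio of KO over WT in cerebellum (left) and hippocampus (right) for 24 genes with a mean of at least 10 CPM in either region, 1 pool per genotype, with exact 95% counting intervals; red marks intervals that exclude 0 and dotted lines mark 1.5-fold. Gabrb1 stands at 1.23 in cerebellum and at -0.74 in hippocampus, and Grin2c at 0.04 in cerebellum and at -0.78 in hippocampus.

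Gabra6, the one member whose interval lay on the same side of 0 in both brain regions, had 9 tags in KO and 25 in WT hippocampus (-1.58, counting interval -2.87 to -0.44), where it is below 10 CPM. How many of all genes had such agreement was not counted. Gabra6 was 101-fold and Grin2c 6.27-fold higher in cerebellum than in hippocampus. Markers of cerebellar neurons differed in both directions in the same hippocampus libraries. Of the 7 Purkinje markers with at least 10 CPM there, 4 had an interval below 0 and 1 above (median log2 ratio -0.25). Those below 0 included Pcp2 (27 tags in KO and 74 in WT) and Car8 (18 in KO and 51 in WT). Calb1, with 347 tags in KO and 250 in WT, lay above 0. The edgeR log2 ratio of cerebellum over hippocampus was 7.20 for Pcp2, 6.19 for Car8 and 2.50 for Calb1. Of the 4 such granule neuron markers, 2 had an interval above 0 and none below (median 0.23), among them Neurod1 with 66 tags in KO and 37 in WT. Markers of either list under 10 CPM there stayed out of these counts. They were Cbln1 (14 tags in KO and 32 in WT), Cbln3 (7 and 10), Ppp1r17 (7 and 13), Zic2 (7 and 8) and Zic1 (23 and 23). Pcp2, Cbln3, Cbln1, Car8 and Ppp1r17 had the largest edgeR ratios of cerebellum over hippocampus in both lists together. All of them had fewer tags in KO than in WT hippocampus, though Cbln3 and Ppp1r17 rest on few tags. Neurod1, higher in KO, had an edgeR log2 ratio of 3.63. The granule neuron list summed to 164 CPM in KO and 154 in WT and the Purkinje list to 709 in KO and 743 in WT. These sums, like the medians, rest mostly on markers with smaller ratios. Pcp4, with an edgeR log2 ratio of 2.07, had 340 CPM in KO and 314 in WT hippocampus. The part of either list in the lower Gabra6 and Grin2c of KO hippocampus was not tested. Gabra2, also under 10 CPM in hippocampus, had 12 tags in KO and 31 in WT hippocampus (-1.48, counting interval -2.57 to -0.48).

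Within liver only Gabbr1, Gabra6, Gria2 and Grik5 reached 10 CPM, none of them with an interval that excluded equality, against 22.7% of all 8159 genes, and none met the fold rule, against 11% of all genes (3.82% higher and 7.21% lower in KO). Summed GABA receptor subunits had 41 tags in KO and 116 in WT liver (log2 ratio -0.77 after scaling, counting interval -1.32 to -0.25), and summed glutamate receptor subunits 73 in KO and 121 in WT (-0.00, -0.44 to 0.43). Gabbr1 and Gabra6 gave the largest parts of the GABA sum, and Gabrd had 1 tag in KO and 11 in WT liver. The auxiliary, anchoring and transmitter lists held no gene called for KO over WT in the fit across tissues (0 of 32, 0 of 22 and 0 of 22 tested), with 4, 1 and 2 at an unadjusted edgeR p under 0.05, against 4.88% of all genes.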

How the data were processed

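The deposited table holds raw counts of sense and antisense tags per RefSeq record in 6 libraries, with no normalization, per the file headers. Base calling used CASAVA 1.8.2, and the build named is mm9, per the submitters' processing notes, while the table itself names a GRCm38 set. Sense counts were summed per gene symbol. In 13 joint rows a member shared its tags with other genes, and their 20 tags were left out. Rows that name no gene held 23.8% to 30.1% of all tags and stayed out of library sizes.

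Tests used edgeR 4.0.16 in R 4.3.3 (quasi-likelihood, TMM, filterByExpr, Benjamini-Hochberg at 0.05 over all genes) with tissue and genotype as terms, on 12906 genes between tissues and 11375 between genotypes. The fits were tested on simulated data, with libraries drawn independently and changed genes taken above a minimum mean count. The tissue fit recovered 18%, 64% and 90% of genes changed 1.5-fold, 2-fold and 4-fold among 12906 genes and called 6 unchanged ones. Within a tissue no test was possible, and ratios carry Clopper-Pearson intervals (scipy 1.17.1), with a floor of 3 tags for a library at 0. The fold rule asked for 1.5-fold, a mean of 10 CPM and an interval without equality.

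The members were named by their symbols, and values in all libraries are given for those with a mean of 10 CPM in a brain region and for the highest and lowest ratio of each family. Genotype values are discussed for members past the fold rule or with an interval that excludes equality. Some members are counted in the totals but not reported here by name. The members and lists were chosen with earlier results of these data known. Alternatives were library totals, DESeq2 1.42.0 and its size factors, no filter, other row handling, no genotype or tissue block, brain libraries alone, other fold and CPM limits, and each library or tissue left out. Sequences are from RefSeq; all 41 symbols matched its GRCm38.p6 gene table.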

Additional observations from a re-analysis of the deposited data

Results flagged for a closer look

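In Gabrb1, the gene of a GABA-A beta subunit, the ratio of KO over WT lay on opposite sides of equality in the brain regions, with counting intervals that excluded equality in each; with 1 pool per genotype, this difference between regions was not tested. The log2 ratio of KO over WT was 1.23 in cerebellum (25 tags in KO and 11 in WT) and -0.74 in hippocampus (38 in KO and 59 in WT), a difference of 1.97. Its cerebellum mean of 5.58 CPM was under the 10 CPM of the fold rule. Intervals excluded equality in both brain regions for 3 members, of which 1 had the same direction in both. Among all genes with at least 10 CPM, intervals excluded equality for 15.1% in cerebellum and 23% in hippocampus. The share of all genes that did so in both regions was not counted, so no excess among the members can be read from these 3.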

How the results depend on the processing

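No called result reversed under the alternatives tried. The 18 members called lower in cerebellum were 11 to 20 when a single library was left out, 11 without WT cerebellum; the 6 called higher were 5 to 7. With DESeq2 the counts were 6 higher and 14 lower, with library totals 7 and 16, with brain libraries alone 7 and 20, and with no replicate block (genotype dropped) 6 and 18. For brain over liver the count of 32 was 31 to 33. For KO over WT across tissues the count was 0 under every alternative. The fit without the tissue block called 0 of all 11375 genes, Atxn2 included, with 7 at an unadjusted edgeR p under 0.05, so its 0 members say nothing about them. DESeq2 called 2 of all 11375 genes lower and 0 higher. Members at an unadjusted edgeR p under 0.05 numbered 0 in the main fit, 1 without the filter on low counts and 2 without cerebellum or without liver. In hippocampus the 2 members past the fold were 0 at a fold of 2, 4 at a lower fold limit (Gabra4, Gabra5, Gabrb1, Grin2c) and 4 at a minimum of 3 CPM (Gabra2, Gabra6, Gabrb1, Grin2c). In cerebellum the count of 0 was 1 at that lower limit (Gria3) and 1 at a minimum of 3 CPM (Gabrb1). The shares of all genes at these other limits were not counted. Of single genes, 27 values lost and 10 gained their call and 1140 kept their side of the threshold; of these, 42 changed sign, all uncalled before and after, 35 of them for KO over WT. Counts limit the scarce genes: members under 10 CPM rest on few tags, and liver values on 114 tags in KO and 237 in WT.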

Other observations

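Antisense tags of Grin3b, the gene of the GluN3B subunit, outnumbered its sense tags in every library. They numbered 96 in KO and 105 in WT cerebellum, 58 in KO and 110 in WT hippocampus and 43 in KO and 80 in WT liver, against 8, 3, 1, 0, 0 and 0 sense tags in the same order. The gene listed as ORF61 (Tmem259), a coding gene on the opposite strand that overlaps Grin3b, had 187 in KO and 183 in WT cerebellum, 154 in KO and 83 in WT hippocampus and 49 in KO and 115 in WT liver. Without Grin3b, antisense tags were 0.537% to 1.04% of the members' tags in brain. Of these, Gabra6 had 37 in KO and 48 in WT cerebellum, against 0 in KO and 5 in WT hippocampus.

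Gria2 tags in the record of transcript variant 3 alone were a larger part of the gene in cerebellum. They made up 5.02% in KO (28 of 558 tags, Clopper-Pearson interval 3.36% to 7.17%) and 3.73% in WT cerebellum (21 of 563, 2.32% to 5.65%), against 1.26% in KO (20 of 1582, 0.774% to 1.95%) and 1.51% in WT hippocampus (23 of 1521, 0.961% to 2.26%). The intervals of the cerebellum pools lie above those of the hippocampus pools, and the difference was not tested over animals.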
